A study of Mus musculus with 12 samples.

Results

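The TAM system of MP cells, a mouse model of Group 3 medulloblastoma driven by MYC, was measured as 5 genes: the ligands Gas6 and Pros1 and the receptors Axl, Tyro3 and Mertk. Members were taken by gene symbol in the array annotation, which gave 5 probe sets, 1 for each gene, among 22180 genes on the array. Gas6 was chosen by its measured rise under the drug in these same arrays, and the other members were added as its family. Its drug values are therefore a description with no test, while tests are given for the other members and for the time and tumour comparisons of Gas6.

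Total RNA was hybridised to 12 Affymetrix Mouse Gene 2.0 ST arrays, which read transcripts with probes spread along each gene. Cells came from 3 tumours named MP525, MP567 and MP570, taken from cerebella of NSG mice, a strain without adaptive immunity that lacks B, T and natural killer cells but keeps macrophages, and plated as single cells in neurocult media plus proliferation supplement. Each tumour was given either 25 nM LBH589 (panobinostat, an inhibitor of histone deacetylases) or 0.00025% DMSO, its solvent, and lysed at 6 h or at 12 h. This gave 4 groups (DMSO 6 h, LBH589 6 h, DMSO 12 h, LBH589 12 h) of 3 arrays, each with 1 array of every tumour. Beyond MYC, neither the alleles of the model nor the age of the mice is given in the sources used here. A tumour is named once for all its cultures. Without the tumour in the model, p-values measure the spread between these tumours and their cultures. With the tumour in the model they measure the spread that remains after the mean of each tumour is removed. The comparisons between tumours take the cultures of a tumour as its replicates, so they are about these 3 tumours only. The study asked which expression changes accompany the toxicity of the drug to these cells.

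GAS6 and protein S (the product of Pros1) are secreted proteins that need vitamin K-dependent carboxylation to bind phosphatidylserine, a lipid that dying cells expose on their outer surface. They bridge such membranes to AXL, TYRO3 and MERTK, a small family of receptor tyrosine kinases. In the brain TAM receptors are known above all from microglia, where AXL and MERTK take part in clearing dead cells and in damping innate immune signalling, while TYRO3 is found on neurons. GAS6 activates all members of the receptor family, and protein S acts mainly through TYRO3 and MERTK.

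Gas6 and Mertk were the members whose LBH589 and DMSO arrays did not overlap, so the 250 bases before their transcription starts are shown, read on the strand of each gene from a RefSeq promoter table of build GRCm38.p6. The Gas6 sequence lies at chr8:13494536-13494785 on the minus strand and the Mertk sequence at chr2:128698665-128698914 on the plus strand. Capitals mark the GC box GGGCGG, the sequence bound by SP1-type factors, or its complement CCGCCC.
Gas6: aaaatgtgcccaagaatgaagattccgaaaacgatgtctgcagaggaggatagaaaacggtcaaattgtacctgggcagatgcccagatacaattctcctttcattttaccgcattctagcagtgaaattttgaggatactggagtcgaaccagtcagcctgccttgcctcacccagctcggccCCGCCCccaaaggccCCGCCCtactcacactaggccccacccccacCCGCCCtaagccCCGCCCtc
Mertk: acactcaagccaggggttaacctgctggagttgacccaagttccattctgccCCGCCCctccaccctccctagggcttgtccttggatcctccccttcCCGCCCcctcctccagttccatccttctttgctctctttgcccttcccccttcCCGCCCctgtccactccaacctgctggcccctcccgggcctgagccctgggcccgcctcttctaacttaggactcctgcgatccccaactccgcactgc
The 4 boxes of Gas6 lie within 66 bases of the start, the nearest beginning 8 bases before it, and all read on the opposite strand. The 3 boxes shown for Mertk lie farther away, beginning 198, 152 and 99 bases before the start. A match of letters is a description and does not show that a factor binds there.

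Gas6 was higher under LBH589 on every array of every tumour and at both times, by about the same amount. On the log2 scale of the array, its DMSO 6 h values were 7.49 in MP525, 7.17 in MP567 and 7.08 in MP570, and its LBH589 6 h values were 9.25, 9.25 and 9.58 in the same order. At 12 h the DMSO values were 7.11, 7.59 and 6.96, and the LBH589 values were 9.30, 9.56 and 9.24. In RNA of whole cultures, more cells that make a transcript and more of it per cell cannot be told apart, nor can fewer cells and less RNA per cell. The highest DMSO array (7.59) lay below the lowest LBH589 array (9.24). The group means were 7.25 ± 0.22 (SD, n = 3) in DMSO and 9.36 ± 0.19 in LBH589 at 6 h, and 7.22 ± 0.33 against 9.37 ± 0.17 at 12 h. These correspond to a log2 difference of 2.11 ± 0.18 (SE, 95% interval 1.72 to 2.50, or 4.32-fold) at 6 h and of 2.15 ± 0.18 (1.76 to 2.54, or 4.43-fold) at 12 h. Among the 18652 genes above the low-value filter, this was the seventh largest rise at 6 h and the ninth at 12 h, which describes the choice of the gene and supports nothing further.

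**Figure D1:**
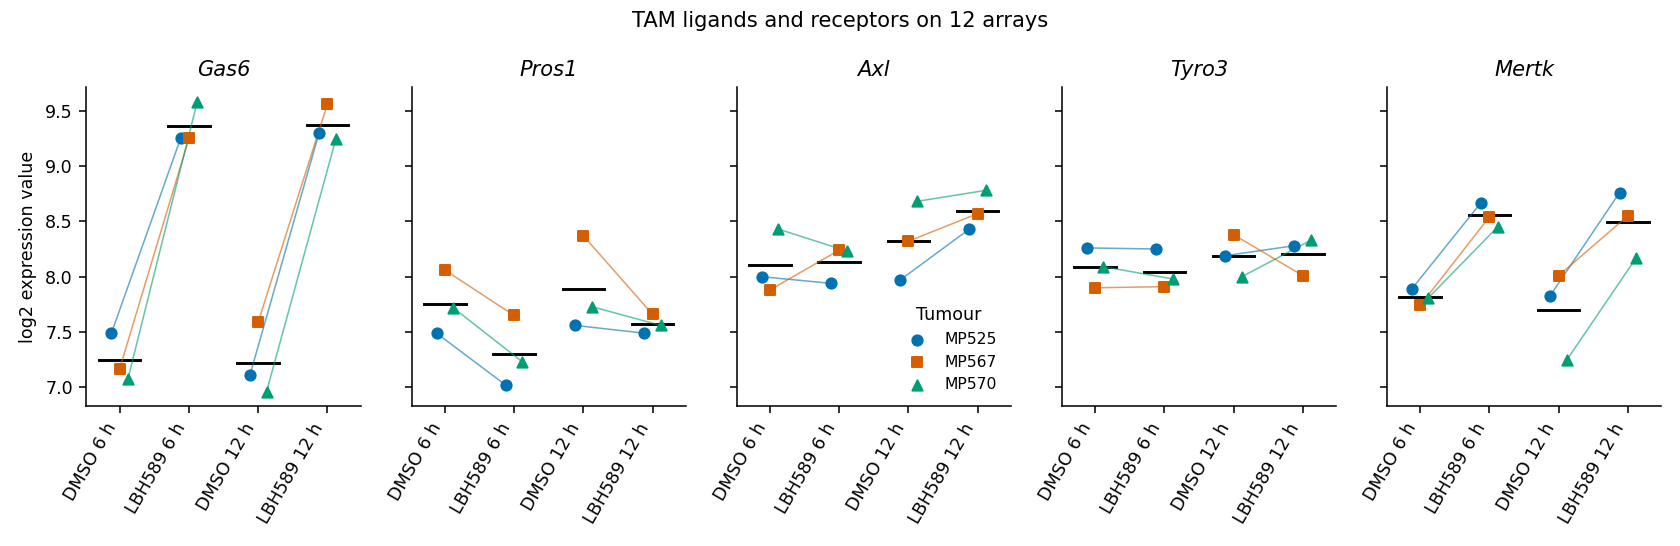
The log2 expression value of each member on the 12 arrays is plotted by group, with a symbol and colour for each tumour, thin lines joining DMSO and LBH589 cultures of a tumour at the same time, and black bars at the mean of the 3 arrays of a group. For Gas6 all 6 LBH589 arrays lie at 9.24 or above and all 6 DMSO arrays at 7.59 or below, Mertk separates in the same way over a smaller distance (8.17 and above against 8.01 and below), and the groups of Pros1, Axl and Tyro3 overlap over both times.

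The Gas6 level under the drug was as high at 6 h as at 12 h within the error of these arrays. Between LBH589 6 h and LBH589 12 h its mean differed by 0.01 ± 0.18 on the log2 scale (limma adjusted p = 0.995), and in DMSO by -0.02 ± 0.18 (limma adjusted p = 1). The LBH589 effect at 12 h minus that at 6 h was 0.04 ± 0.25 (95% interval -0.52 to 0.59, limma adjusted p = 1). In this comparison limma called 0% of all genes tested (490 had an unadjusted p under 0.05), and 0.0107% with the tumour as a block in the model.

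No difference in Gas6 between tumours passed the test. Over both times the rise was 1.98 ± 0.17 (SE) in MP525, 2.03 ± 0.17 in MP567 and 2.39 ± 0.17 in MP570. These 3 effects did not differ beyond their error (limma F test of treatment by tumour, adjusted p = 0.589, with the 2 times standing in for replicates). MP570 had the lowest Gas6 value of the 3 tumours in 3 of the 4 groups but the highest in LBH589 6 h. The mean level over the 4 groups did not pass the test between tumours either (limma F test, adjusted p = 0.584). The 3 genes whose values followed Gas6 most closely over the 12 arrays were Cpt1a, the enzyme that commits fatty acids to mitochondrial oxidation (Pearson r = 0.987), Card19 (0.986) and Wfs1, a protein of the endoplasmic reticulum (0.985). The arrays share 3 tumours and the drug contrast sets most of this likeness, so it is given as a description. Their own log2 differences between LBH589 and DMSO over both times were 2.86 for Cpt1a, 1.18 for Card19 and 1.31 for Wfs1.

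Pros1, the other ligand, lay lower in LBH589 than in DMSO in every tumour at both times, and whether this passed the test turned on the tumour differences. Its DMSO 6 h values were 7.49 in MP525, 8.06 in MP567 and 7.72 in MP570, against 7.02, 7.65 and 7.23 in LBH589 6 h. The DMSO 12 h values were 7.56, 8.37 and 7.73, against 7.49, 7.66 and 7.56 in LBH589 12 h. The groups overlapped at each time, because the LBH589 arrays of MP567 lay above the DMSO arrays of MP525. The log2 difference was -0.46 ± 0.22 (SE, 95% interval -0.94 to 0.03, limma adjusted p = 0.207) at 6 h and -0.32 ± 0.22 (-0.80 to 0.16, limma adjusted p = 0.378) at 12 h, so without the tumour in the model no fall was called. With the tumour as a block the differences keep their size, their intervals become -0.70 to -0.21 and -0.56 to -0.07, and both pass, at a limma adjusted p of 0.00616 for 6 h and of 0.0403 for 12 h. At 6 h the fall was even across tumours, with log2 differences of -0.47, -0.41 and -0.49. At 12 h it was -0.71 in MP567 but -0.07 in MP525 and -0.17 in MP570. Averaged over both times the difference was -0.39 ± 0.16 (limma adjusted p = 0.0858 without the block and 0.0011 with it). In the fit without the block this average passed when DMSO 12 h of MP525 (adjusted p = 0.0475) or LBH589 6 h of MP567 (0.0389) was left out. With the block and 1 tumour left out, the 6 h call was kept without MP525 or MP567 and ended without MP570, and the 12 h call was kept only without MP525. The ligands thus differed in direction: Gas6 was higher and Pros1 lower under LBH589 in 3 of 3 tumours, without a test of that difference.

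Pros1 also differed between the tumours themselves. MP567 had the highest and MP525 the lowest value in 4 of the 4 groups. The mean over the 4 groups was 7.39 in MP525, 7.94 in MP567 and 7.56 in MP570 (limma F test over tumours, adjusted p = 0.00164). MP567 exceeded MP525 by 0.55 ± 0.10 (limma adjusted p = 0.000883), and MP570 lay below MP567 by a difference of -0.38 ± 0.10 (0.0115). Without MP567 the tumour difference was no longer called (limma adjusted p = 0.201). Such differences were common in these arrays, since limma called 37.4% of all genes between tumours. The genes most like Pros1 over the 12 arrays were Cyb5d2 (r = 0.967), Il15ra (0.959), the alpha chain of the interleukin-15 receptor, and Atf7ip (0.939), a cofactor of histone methylation.

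Of the receptors, Mertk rose under LBH589, while Axl and Tyro3 did not pass the test. Mertk had values of 7.89, 7.74 and 7.81 in DMSO 6 h and of 8.67, 8.54 and 8.45 in LBH589 6 h, in the order MP525, MP567, MP570. At 12 h it had 7.83, 8.01 and 7.25 in DMSO and 8.76, 8.55 and 8.17 in LBH589. All 6 LBH589 arrays lay above all 6 DMSO arrays, and 17.7% of all genes tested were likewise without overlap, in either direction. The log2 difference was 0.74 ± 0.19 (SE, 95% interval 0.32 to 1.16, or 1.67-fold, limma adjusted p = 0.022) at 6 h and 0.80 ± 0.19 (0.38 to 1.21, or 1.74-fold, limma adjusted p = 0.0133) at 12 h. It was positive in 3 of 3 tumours at each time, ranging from 0.54 in MP567 at 12 h to 0.93 in MP525 at 12 h. Over both times it was 0.77 ± 0.13 (limma adjusted p = 0.00113).

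The Mertk calls at single times were close to the threshold in the fit without the tumour. At 6 h the call ended when LBH589 6 h of MP525 (adjusted p = 0.0758), DMSO 6 h of MP567 (0.0658), LBH589 6 h of MP567 (0.0508) or DMSO 6 h of MP570 (0.0565) was left out, and when all arrays of MP525 (0.157) or MP567 (0.105) were. At 12 h it ended without LBH589 12 h of MP525 (limma adjusted p = 0.0513), without all of MP525 (0.124), and with only the 2 groups compared in the fit (0.0536). The average over both times stayed called when any of the 12 arrays (highest limma adjusted p = 0.00384) or any of the 3 tumours (0.03) was left out. With the tumour as a block Mertk passed at 6 h (limma adjusted p = 0.000613) and at 12 h (0.000308), and did so with each tumour left out in turn. As with Gas6, no change between the times was detected, with a difference of the effects of 0.06 ± 0.27 (95% interval -0.53 to 0.64, limma adjusted p = 1).

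No difference between tumours in the Mertk response passed the test. The rise over both times was 0.86 ± 0.16 in MP525, 0.67 ± 0.16 in MP567 and 0.78 ± 0.16 in MP570 (limma F test of treatment by tumour, adjusted p = 0.89). Its mean over the 4 groups was 8.29 in MP525, 8.21 in MP567 and 7.92 in MP570 (limma F test over tumours, adjusted p = 0.0471), with MP570 below MP525 by a difference of -0.36 ± 0.12 (limma adjusted p = 0.0413). This tumour difference was narrow: 16 of 23 alternatives ended the call, among them the 6 DMSO arrays alone (adjusted p = 0.227), quantile normalization (0.0687), centring on the array medians (0.0952) and leaving out MP525 (0.141) or MP570 (0.593). Mertk values followed those of Gas6 over the 12 arrays with r = 0.902, and with r = 0.50 for deviations from the group means. Closer still to Mertk were Pdlim5, a protein of the actin cytoskeleton (r = 0.973), Sde2 (0.972) and Tgoln1, a protein of the trans-Golgi network (0.964).

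Axl lay at similar levels in both treatments at 6 h and was highest in LBH589 12 h. Its values were 8.0, 7.88 and 8.43 in DMSO 6 h and 7.94, 8.24 and 8.23 in LBH589 6 h, and the groups overlapped. They were 7.97, 8.32 and 8.68 in DMSO 12 h and 8.43, 8.57 and 8.78 in LBH589 12 h, again with overlap. LBH589 minus DMSO was 0.03 ± 0.19 (95% interval -0.39 to 0.46, limma adjusted p = 0.948) at 6 h and 0.27 ± 0.19 (-0.15 to 0.70, limma adjusted p = 0.389) at 12 h. At 12 h it was positive in 3 of 3 tumours, and with the tumour as a block its interval was 0.03 to 0.52 and it did not pass after adjustment either (limma adjusted p = 0.0774). Within LBH589, Axl values at 12 h exceeded those at 6 h by 0.50, 0.33 and 0.55 in the 3 tumours. The mean difference was 0.46 ± 0.19 on the log2 scale. This was the largest time difference of any member, and it did not pass either (limma adjusted p = 0.631, unadjusted 0.0361, adjusted 0.0565 with the block). In DMSO the time difference was 0.22 ± 0.19 (limma adjusted p = 1).

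Axl differed between the tumours. MP570 had the highest value in 3 of the 4 groups and MP525 the lowest in 3 of the 4. The means over the groups were 8.08 in MP525, 8.25 in MP567 and 8.53 in MP570 (limma F test, adjusted p = 0.00816), and MP570 exceeded MP525 by 0.45 ± 0.10 (limma adjusted p = 0.00656). The difference was no longer called without MP525 (0.0765) or without MP570 (0.246). Among the genes most like Axl over the 12 arrays were Mmp13, a collagenase (r = 0.934), and Saa3, an acute-phase protein that macrophages and other cells make in inflammation (0.915).

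Tyro3 gave no detectable difference between treatments. Its values were 8.26, 7.90 and 8.09 in DMSO 6 h, 8.25, 7.91 and 7.98 in LBH589 6 h, 8.19, 8.38 and 8.0 in DMSO 12 h and 8.28, 8.01 and 8.33 in LBH589 12 h. All 4 groups overlapped. LBH589 minus DMSO was -0.04 ± 0.15 (95% interval -0.36 to 0.28, limma adjusted p = 0.907) at 6 h and 0.02 ± 0.15 (-0.30 to 0.33, limma adjusted p = 0.959) at 12 h. Over both times it was -0.01 ± 0.10 with an interval of -0.24 to 0.21, which does not reach the Mertk difference of 0.77. Tumours did not pass for Tyro3 (limma F test, adjusted p = 0.315), although they did when DMSO 12 h of MP567 was left out (0.0292). That array, at 8.38, was the highest of all 12. The genes most like Tyro3 were Bpifb9a (r = 0.924), Cyp4f14 (0.908) and Lrrc17 (0.868).

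**Figure D2:**
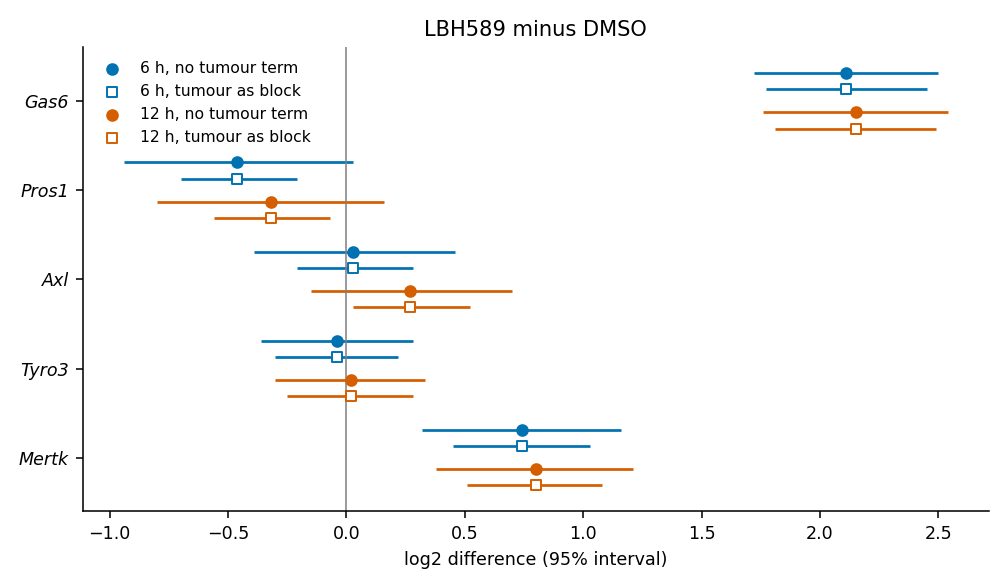
The log2 difference between LBH589 and DMSO is plotted for each member at 6 h (blue) and at 12 h (orange), with 95% intervals, from the fit without a tumour term (filled circles) and with the tumour as a block (open squares). Gas6 lies farthest to the right, and its intervals describe its spread and are not read as a test. The intervals of Mertk lie above 0 in both fits, and those of Pros1 exclude 0 only with the block. That of Axl does so only at 12 h with the block (0.03 to 0.52), and those of Tyro3 span 0 throughout.

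Beside Gas6, 1 of the other 4 members (Mertk) was called at 6 h and at 12 h, and 2 (Mertk and Pros1) with the tumour as a block. Limma called 15.8% of all genes at 6 h and 18.2% at 12 h without the block, and 34% and 37.1% with it. Averaged over both times it called 30.1% without the block and 45.9% with it, and Mertk was the only one of the 4 called without it. At these backgrounds 1 or 2 calls among 4 genes is near the share of genes at large. Differences of the drug effect between tumours passed for 1.06% of all genes and for 0 of the 5 members in limma (0 of them at an unadjusted p under 0.05).

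**Figure D3:**
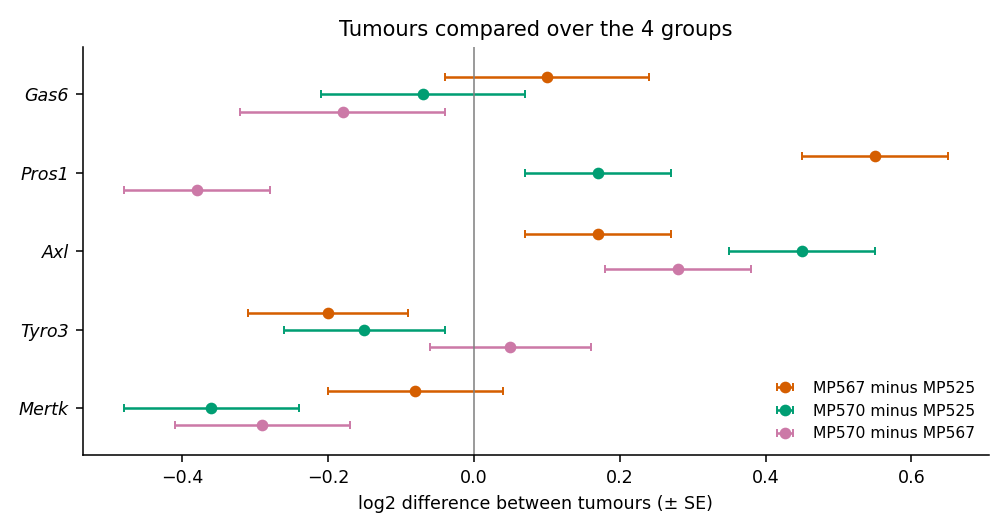
The difference in log2 level between each pair of tumours is plotted for each member, from the fit of group plus tumour over 12 arrays, with bars of 1 SE. MP567 lies above MP525 by 0.55 for Pros1, MP570 above MP525 by 0.45 for Axl and below it by 0.36 for Mertk, while the Gas6 differences lie within 0.18 of 0.

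Time alone called 0 of the 5 members in either treatment, in limma with or without the block. At an unadjusted p under 0.05 only Axl in LBH589 appeared. Limma called 0.0214% of all genes between 12 h and 6 h in DMSO (412 genes had an unadjusted p under 0.05) and 0.311% with the block. In LBH589 it called 0% (1415 genes unadjusted) and 1.99% with the block.

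**Figure D4:**
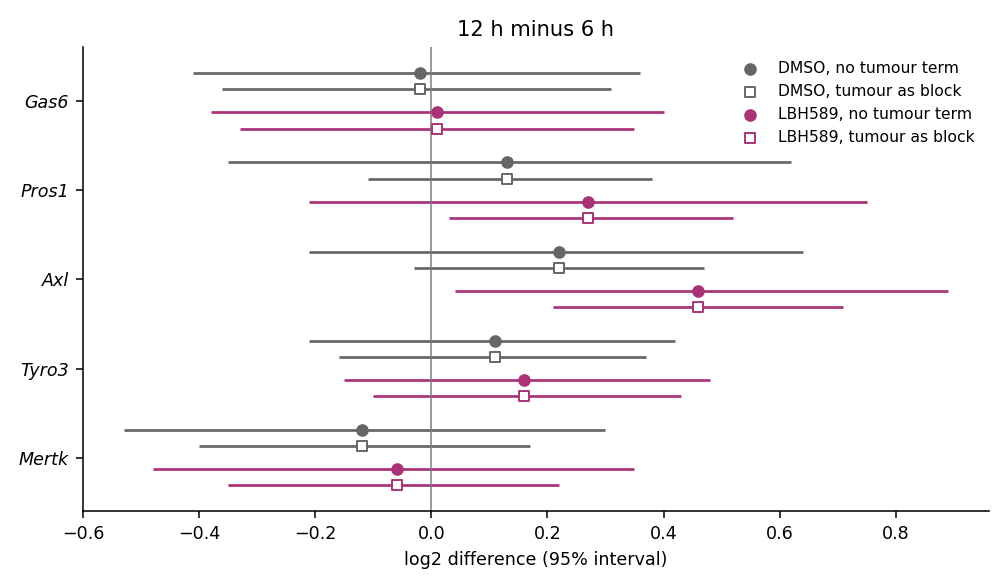
The log2 difference between 12 h and 6 h is plotted for each member in DMSO (grey) and in LBH589 (purple), with 95% intervals, from the fits without (filled circles) and with (open squares) the tumour as a block. Gas6 lies at -0.02 and 0.01, and the largest value is that of Axl in LBH589 at 0.46.

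The promoters of all 5 members held at least 2 GC boxes in the 300 bases from 250 before to 50 after the start, where 35.7% of the 32851 windows of the same length in the RefSeq table, and 52.5% of those of tested genes, hold 1 or more. Tyro3 had 6, Pros1 5, Gas6 and Mertk 4 each and Axl 2. Boxes of Pros1, at 12 and 8 bases before the start, overlap each other, as do those of Tyro3 around its start. At least 4 boxes, as in Tyro3, Pros1, Gas6 and Mertk, were found in 8.7% of the windows of tested genes. The CpG dinucleotide, the site of DNA methylation, occurred 31 times in Tyro3, 21 in Pros1, 17 in Gas6, 14 in Mertk and 6 in Axl, against a median of 7 over all windows. Of all windows 89.4% held fewer than Tyro3, 75.2% fewer than Pros1, 68.6% fewer than Gas6, 63.7% fewer than Mertk and 43.6% fewer than Axl. The CpG counts and the motifs below were not set against the windows of tested genes. Other motifs were searched on both strands. The E-box CACGTG that MYC binds was found in none of the 5 windows and in 7.2% of all, the AP-1 site TGANTCA in none and in 7.8%, and the heat shock half-pair TTCNNGAA in none and in 8.5%. The forkhead site TGTTTAC was found in Axl alone, beginning 229 bases before the start, and in 3.6% of all windows.

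Of the 3 tested protein-coding genes on each side of Gas6, 0 of 6 were called at 6 h or at 12 h in limma without the block (1 at 6 h and 0 at 12 h had an unadjusted p under 0.05, and 1 was called with the block at each time), with log2 differences from -0.19 to 0.62. The highest was Rasa3, a Ras GTPase-activating protein, with 0.62 ± 0.28 at 6 h (limma adjusted p = 0.174, 0.00135 with the block). Beside Mertk, 3 of 6 were called at 6 h and 2 at 12 h, in both directions. Bcl2l11, the gene of BIM, a BCL2-family protein that promotes apoptosis, rose by 1.01 ± 0.11 at 6 h (limma adjusted p = 0.000233) and by 0.80 ± 0.11 at 12 h (0.000702), while Anapc1, a subunit of the anaphase-promoting complex and the nearest tested gene on one side, changed by -0.39 ± 0.12 and -0.64 ± 0.12 (0.0415 and 0.00324). At 6 h 3 of 6 were also called beside Tyro3, which itself gave no detectable drug difference, and 1 of 6 beside each of Pros1 and Axl. Over all genes limma called 15.8% at 6 h and 18.2% at 12 h, and 34% and 37.1% with the block. The neighbours were looked up after the values of the members had been seen.

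Some genes of the vitamin K-dependent modification of GAS6 and protein S rose with the drug. Of 7 tested genes of the vitamin K cycle and gamma-carboxylation, 3 rose at 6 h and 4 at 12 h, and 0 fell (limma adjusted p under 0.05). This is 42.9% and 57.1% of the list, against 15.8% and 18.2% of all genes, and the list median was 0.29 and 0.49 against -0.02 and 0.01. This list and those below were chosen with earlier results of these data known. Their shares beside all genes are descriptions, not tests. Ggcx, the gamma-glutamyl carboxylase itself, rose by 0.75 ± 0.14 at 6 h (limma adjusted p = 0.00391) and by 0.63 ± 0.14 at 12 h (0.00871). Its level went from 9.31 ± 0.11 (SD, n = 3) to 10.06 ± 0.20 at 6 h. Calu, a chaperone of the endoplasmic reticulum that restrains the carboxylase, rose by 0.50 ± 0.11 and 0.46 ± 0.11. Aifm2, a quinone reductase that can act on vitamin K, rose by 0.37 ± 0.11 and 0.53 ± 0.11. Nqo1, another quinone reductase, rose by 0.65 ± 0.13 at 12 h (limma adjusted p = 0.00421), with 0.25 ± 0.13 at 6 h (0.222). Vkorc1, the vitamin K epoxide reductase that warfarin blocks, had a difference of 0.06 at 6 h (limma adjusted p = 0.863) and of 0.49 at 12 h (0.0515, and 0.000506 with the block). With the block 4 of the 7 rose at 6 h and 5 at 12 h, where 34% and 37.1% of all genes were called. Without the tumour in the model, the Ggcx and Calu calls at both times ended when MP525 or MP570 was left out, the Aifm2 call at 6 h when any tumour was and at 12 h without MP570, while Nqo1 at 12 h was kept in each case.

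No other substrate of this carboxylase was called higher without the block. Of 12 tested genes for other vitamin K-dependent proteins, such as clotting factors and matrix Gla protein, limma called 0 at 6 h and 1 at 12 h. At an unadjusted p under 0.05 there was 1 at each time, and with the block 1 rose and 1 fell at each time. Over all genes the shares were 15.8% at 6 h (34% with the block) and 18.2% at 12 h (37.1% with the block). Prrg4 had differences of 0.48 ± 0.57 and 0.49 ± 0.57, called higher only with the block (limma adjusted p = 0.0328 and 0.0271). The 1 gene of the list called without the block was Prrg1, a membrane protein with a Gla domain. It fell by 0.67 ± 0.18 at 12 h (limma adjusted p = 0.0222, and 0.000388 with the block). In the fit without the block this call ended without MP525 or MP567. Tub, Tulp1 and Lgals3, proposed as further TAM ligands, gave 0 calls at both times, also at an unadjusted p under 0.05 and with the block, with log2 differences from -0.29 to 0.17.

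Among genes that move phosphatidylserine across the membrane, 1 of 8 was called at each time (12.5%, below the share of all genes). With the block 2 and 4 were called, where 34% and 37.1% of all genes were. The gene called without the block was Xkr8, a scramblase that caspases activate. It rose by 0.45 ± 0.11 at 6 h (limma adjusted p = 0.0152, and 0.00111 with the block) and by 0.47 ± 0.11 at 12 h (0.0106, and 0.000711 with the block). In the fit without the block both calls ended when any 1 tumour was left out. Atp8a1, a flippase that keeps the lipid inside, had 0.81 ± 0.34 and 0.82 ± 0.34, called only with the block (limma adjusted p = 3.57e-05 and 2.87e-05).

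Proteases that cut AXL and MERTK from the cell surface were not called, whereas their regulators were. Adam10 and Adam17, the sheddases, had log2 differences from -0.23 to 0.11. Adam10 at 12 h passed with the block only (limma adjusted p = 0.0358). Rhbdf2, an inactive rhomboid that brings ADAM17 to the surface, rose by 2.0 ± 0.16 at 6 h (limma adjusted p = 4.38e-05) and by 1.93 ± 0.16 at 12 h (3.46e-05), from a level of 7.47 ± 0.08 (SD, n = 3) to 9.47 ± 0.28 at 6 h. Rhbdf1, its relative, rose by 0.70 ± 0.14 at 12 h (limma adjusted p = 0.00433, and 5.02e-05 with the block), with 0.41 ± 0.14 at 6 h (0.061, and 0.00331 with the block). In the fit without the block its 12 h call ended without MP570. Timp3, an inhibitor of ADAM17, lay at the threshold with 0.92 ± 0.29 at 6 h (limma adjusted p = 0.0487) and 0.88 ± 0.29 at 12 h (0.0528). The 6 h call of Timp3 ended with arrays centred on their medians, without MP525 and without MP570, and both times passed clearly with the block (6.28e-06 and 7.52e-06). The 2 called genes of 5 tested at each time are 40% of the list, beside 15.8% and 18.2% of all genes. Like the other lists, this one was chosen with earlier results known, so the share is a description. With the block 3 rose at each time and 1 fell at 12 h, where 34% and 37.1% of all genes were called.

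Signalling partners of the receptors went in both directions. Of 21 tested, 2 rose and 3 fell at 6 h and 1 rose and 2 fell at 12 h (23.8% and 14.3%, beside 15.8% and 18.2% of all genes). With the block 8 rose and 6 fell at 6 h and 9 rose and 5 fell at 12 h, where 34% and 37.1% of all genes were called. Stat3, a transcription factor downstream of many cytokine and growth factor receptors, rose by 1.22 ± 0.14 (limma adjusted p = 0.000313) and 1.17 ± 0.14 (0.000312). Akt2, Akt1 and Src, kinases that act below many receptors, fell: Akt2 by 0.53 ± 0.14 and 0.49 ± 0.14, Akt1 by 0.42 ± 0.11 and 0.39 ± 0.11, and Src by 0.57 ± 0.12 at 6 h, with -0.36 ± 0.12 at 12 h (limma adjusted p = 0.0593, and 0.0155 with the block). Another kinase of the list, Tnk2, had positive differences of 0.51 ± 0.23 and 0.36 ± 0.23, called only with the block (limma adjusted p = 0.00147 and 0.0129). In the fit without the block, the Akt1 and Akt2 calls each ended without at least 2 of the tumours and without 4 of the 12 single arrays. In the same fit the Src call at 6 h ended without MP525 or MP570, and the Stat3 calls were kept. With the block and all arrays, Akt2 (limma adjusted p = 7.05e-05 and 0.00011), Akt1 (0.000477 and 0.000683) and Src at 6 h (0.000839) passed.

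Of 20 tested genes of engulfment outside the TAM system, 5 rose and 1 fell at each time (30%, beside 15.8% and 18.2% of all genes). With the block 7 rose and 2 fell at 6 h, and 7 rose and 3 fell at 12 h, where 34% and 37.1% of all genes were called. Mfge8, which like GAS6 bridges phosphatidylserine to a receptor, in its case the integrins of the alpha v family, rose by 1.16 ± 0.26 at 6 h (limma adjusted p = 0.0106) and by 1.36 ± 0.26 at 12 h (0.00374). Itgb5, the beta chain of one such integrin, rose by 0.72 ± 0.10 and 1.06 ± 0.10, while Itgav, the alpha v chain, fell by 0.89 ± 0.12 and 0.80 ± 0.12 (limma adjusted p = 0.000821 and 0.00119). Elmo2, part of the complex that activates RAC1 during engulfment, rose by 1.39 ± 0.13 and 1.0 ± 0.13. In the fit without the block, the calls of Itgb5, Itgav and Elmo2 at both times were kept without each array and each tumour. In the same fit that of Mfge8 at 6 h ended without MP525 or MP567. With the block and all arrays Mfge8 passed at 6 h (limma adjusted p = 0.000182).

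Beside the 1 rise among 3 TAM receptors, 49 other receptor tyrosine kinases were tested. Of these 7 rose and 2 fell at 6 h and 8 rose and 2 fell at 12 h (18.4% and 20.4%, close to all genes). With the block 13 rose and 5 fell at 6 h and 18 rose and 9 fell at 12 h. The block called 34% and 37.1% of all genes. Epha4, an ephrin receptor, rose by 1.35 ± 0.26 and 1.24 ± 0.26 (limma adjusted p = 1.48e-06 and 2.22e-06 with the block). In the fit without the block its call ended without MP570 at both times and without MP567 at 12 h. Fgfr1, a fibroblast growth factor receptor, rose by 0.76 ± 0.10 and 0.81 ± 0.10, and Fgfr2 by 1.01 ± 0.23 at 6 h, with 0.69 ± 0.23 at 12 h (limma adjusted p = 0.0618, and 0.0039 with the block). In the fit without the block, the Fgfr1 calls were kept without any array or tumour, and the Fgfr2 call ended without MP525 or MP570. With the block and all arrays Fgfr2 passed at 6 h too (limma adjusted p = 0.00027). Ddr2, a collagen receptor, fell by 0.80 ± 0.21 and 0.90 ± 0.21 (limma adjusted p = 1.98e-05 and 6.97e-06 with the block). In the fit without the block its calls ended without MP570, and at 6 h also without MP525. Among the genes named in these lists, calls of Aifm2, Xkr8, Timp3, Akt1, Akt2, Fgfr2 and Ddr2 at 6 h and of Calu, Prrg1, Akt1 and Akt2 at 12 h also ended without single arrays. These leave-outs of pathway genes were all made in the fit without the tumour. With the tumour as a block and all 12 arrays, each of these calls of a named pathway gene also passed.

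**Figure D5:**
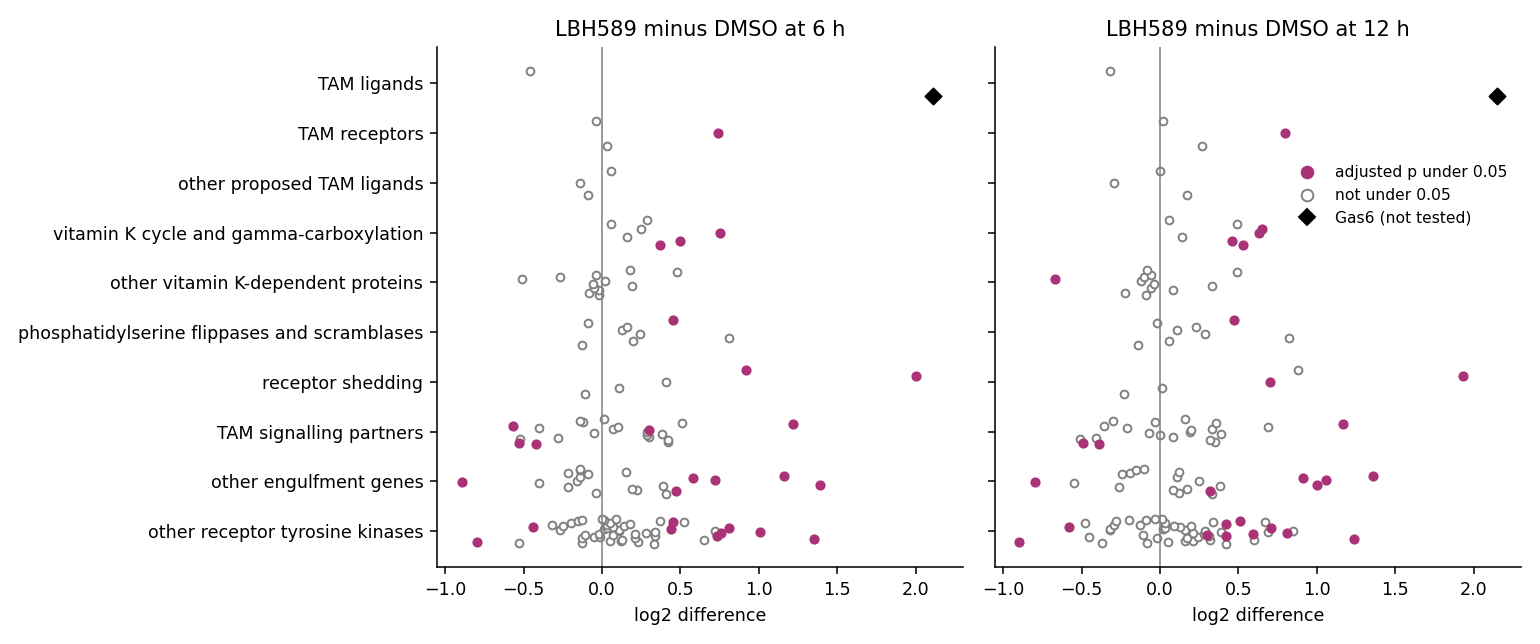
Each point is 1 tested gene of the TAM genes and of the 8 pathway lists, at its log2 difference between LBH589 and DMSO at 6 h (left) or 12 h (right), with filled points for a limma adjusted p under 0.05 in the fit without the block and a diamond for Gas6, which was not tested. Gas6 lies farthest to the right at both times, with Rhbdf2 next at 2.0 and 1.93, and the calls of the vitamin K cycle list all lie to the right of 0.

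TAM receptors are also made by cells other than the tumour cells, so markers of such cells are given beside these values. Of 14 macrophage and microglia markers, limma called 0 at 6 h (0 at an unadjusted p under 0.05, 0 with the block) and 1 at 12 h (Cd68, a lysosomal protein, 0.71 ± 0.17, limma adjusted p = 0.0129), where 2 rose and 3 fell with the block. The mean of the list over its genes lay between 7.53 and 7.62 in DMSO 6 h, 7.44 and 7.61 in LBH589 6 h, 7.34 and 7.87 in DMSO 12 h, and 7.50 and 7.69 in LBH589 12 h. Of these markers 6 of 14 (Cx3cr1, C1qa, C1qb, Cd68, Tyrobp and Fcer1g) lay above the median of every array, 2 (Aif1 and P2ry12) lay below it on every array, and 6 lay on both sides. Fcer1g ranged from 8.1 to 9.59, Cx3cr1 from 8.02 to 8.46 and P2ry12 from 6.63 to 7.07. The array gives no true 0, so absence of these cells cannot be read from it. Of 7 astrocyte markers 0 were called at both times (0 unadjusted, 2 and 4 with the block). Of 7 fibroblast and pericyte markers 0 were called at both times (0 and 1 unadjusted, 0 and 2 with the block). Of 4 oligodendrocyte markers 0 were called (0 unadjusted, 0 with the block). Of 6 endothelial markers 1, Kdr, was called at each time, with a rise of 0.81 ± 0.18 and 0.71 ± 0.18, and with the block 1 rose at 6 h and 3 at 12 h. Markers of neurons (list mean at the 84.9th to 91.6th percentile of an array) and the proliferation marker Mki67 (11.28 to 12.36) were high on every array. Of 6 neuronal markers 1 rose at 6 h, and 1 rose and 2 fell at 12 h, while with the block 2 rose and 4 fell at both times. Of 9 markers of cerebellar progenitors and Group 3 medulloblastoma 1 rose and 1 fell at 6 h, and 1 rose and 2 fell at 12 h, while with the block 2 rose and 3 fell at both times. Myc ranged from 8.34 to 8.78 and the Group 3 marker Otx2 from 6.46 to 7.82, which on some arrays lies below the median. Over all genes limma called 15.8% at 6 h and 18.2% at 12 h, and 34% and 37.1% with the block. The part of any of these cell types in the levels of the members was not tested.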

How the data were processed

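Values on a log2 scale, 1 per probe set, were deposited by the authors. The scale is read from their range (1.5 to 14.47), Agilent Feature Extraction 10.7.3.1 is the tool in the submitters' processing notes, and the summary and normalization of these Affymetrix arrays are not given in the sources used here. Medians of the arrays (7.1 to 7.21) were left unchanged, and precision is limited by how many arrays there are. Of 41345 probe sets, 23521 named 1 gene, 1814 several (not used) and 16010 were unlisted in the annotation. For each gene the probe set with the highest mean was kept. Genes above the 25th percentile of an array on at least 3 arrays were tested (18652 of 22180), and all 5 members passed. Group means were fitted with limma 3.58.1 in R 4.3.3 (lmFit, eBayes with trend, 8 residual degrees of freedom). Two-sided p-values were Benjamini-Hochberg adjusted over all tested genes, and genes were called at an adjusted p under 0.05. The fit was tested on simulated data with independent noise on each array. The drug comparison was run there without the block, so drug calls with the block were not covered. The members and gene lists were chosen with earlier results of these data known.

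The labels give every tumour 1 array in each group, so arrays are paired by tumour. Deviations from the group means correlated at 0.45 to 0.805 in the 18 pairs of a tumour and at -0.51 to -0.058 in pairs that differed in both tumour and group. Deviations of the tumours within a group cancel out, which by itself favours negative values between tumours. Adding the tumour as a block leaves 6 residual degrees of freedom. Drug differences at 6 h and 12 h are taken between different arrays, but these come from the same 3 tumours. Both also share 1 estimate of the spread from all 12 arrays, so their p-values are not independent. Time and drug comparisons share arrays. Named pathway genes were up to 4 called genes of each list, those with the largest mean change. For each member the 3 tested genes with the highest correlation over the 12 arrays were named, except that 1 of those for Axl is not reported here. Of the list genes, 11 lacked a probe set naming them alone and 3 did not pass the filter, and these were not analysed here. Positions on the array's own build are not given, and alternatives tried were scaling, filters, probe sets, block, trend and leaving out arrays or tumours.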

Additional observations from a re-analysis of the deposited data

How the results depend on the processing

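Gas6 kept its direction in all 28 alternatives at each time, from 1.92 to 2.29 at 6 h and 2.02 to 2.33 at 12 h. Pros1 was called at 6 h (-0.46) with the tumour as a fixed (limma adjusted p = 0.00616) or random replicate block (0.0252), and with the fixed block without MP525 (-0.45) or MP567 (-0.48), an alternative chosen after seeing the data. At 12 h it was called with the fixed block (-0.32) and with that block without MP525 (-0.44). Mertk at 12 h (0.80) was not called with only the 2 groups compared. Leaving out arrays or tumours moved Mertk between 0.68 and 0.79 at 6 h and between 0.57 and 0.96 at 12 h. The members called besides Gas6, 1 at each time, became 2 with the fixed block at both times, 2 with the random block at 6 h, 2 with the block and a tumour left out as above, and 0 with only the 2 groups at 12 h, and ranged from 0 to 1 when arrays or tumours were left out. Axl and Tyro3 drug effects were called in 0 of 28 alternatives at each time. The block changed no other drug call among the members. Without the block, 18 named pathway genes were called at each time. In that fit 6 of them at 6 h and 8 at 12 h kept their call without every single array and tumour. No direction of a called value reversed. Removing a tumour leaves 2 arrays in a group, which limits these fits, and scaling shifted the median of all genes by at most 0.02.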
